A study of Homo sapiens with 12 samples.

Results

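FOLR1 and 6 further genes of folate uptake and retention (FOLR2, FOLR3, SLC19A1, SLC46A1, FPGS and GGH) were followed in NCM460 cells, an established line derived from normal human colonic epithelium. They were taken by name from a table of 58735 genes, and the set was chosen by the levels of FOLR1, which was higher in the Bufotenidine and si groups than in the TNFa group of these same libraries. These levels are therefore given as a description with no test, and tests are given for the other members. Poly(A) RNA was sequenced from 12 libraries in 4 groups of 3. The medium group received culture medium, the TNFa group received the inflammatory cytokine TNF-α, the Bufotenidine group received TNF-α together with Bufotenidine (called 5-OH-TMT in the study, a quaternary ammonium derivative of bufotenine), and the si group received TNF-α after siRNA against HTRA2. The first 3 groups carry the genotype label WT and the si group HTRA2 knockdown, all in the same cell line, and doses and hours were not given in the labels. The study describes its knockdown comparison as one against a control siRNA, but no label here names one, so the si group was set against TNFa, and transfection and the loss of HTRA2 cannot be told apart in the si group. The labels do not say whether the 3 libraries of a group came from separate cultures, so the p-values measure the spread between these libraries, which may be technical.

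Folate cannot be made by human cells and is brought in by 3 kinds of protein. Folate receptors (FOLR1, FOLR2) are tied to the outer membrane by a lipid anchor and take folate up by endocytosis, the reduced folate carrier SLC19A1 exchanges it at neutral pH, and the proton-coupled carrier SLC46A1 moves it at acid pH and is best known for absorption in the upper intestine. FOLR1 is typical of some epithelia, FOLR2 of macrophages and other myeloid cells, and FOLR3 is a secreted form found in neutrophils. Inside the cell FPGS adds glutamates to folate, which keeps it there, and GGH removes them.

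Between 31008429 and 37624399 reads fell on genes per library, recovered as whole reads from the deposited FPKM (fragments per kilobase of gene and per unit of library size). HTRA2 itself was 15.4, 14.0 and 14.2 FPKM in the 3 TNFa libraries and 7.44, 7.18 and 7.22 FPKM in the 3 si libraries, a fall of 0.98 ± 0.09 (SE) on the log2 scale (limma, adjusted p = 2.77e-05, n = 3 per group), with medium at 14.8 ± 2.04 and Bufotenidine at 15.3 ± 0.363 FPKM (SD). Replicate 2 of the si group stood apart, with 2.95% of its reads on mitochondrial genes against 3.69% to 4.68% in the other libraries. Of the 13 colon epithelium markers, the keratins KRT8 and KRT18, EPCAM and CDH1 were high in every group, while KRT20, VIL1, CDX1, CDX2, LGALS4, GPA33 and CEACAM5 had a mean under 0.1 FPKM, so the colonic label is carried by general epithelial genes. Of the 6 that passed the filter, CDH1 (by 0.40 ± 0.06, adjusted p = 0.00108) and KRT19 (by 0.77 ± 0.15, adjusted p = 0.0044) were called higher in si than in TNFa (limma, log2 ± SE, n = 3). Of all genes tested, 9.35% were called higher in that comparison.

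The 3 receptor genes lie together on chromosome 11 (GRCh38, + strand), with FOLR3 at chr11:72114869-72139892, FOLR1 at chr11:72189558-72196323 and FOLR2 at chr11:72216601-72221950. Their coding sequences are close copies, so what separates the reads of one from another is shown here by a 120-base coding stretch of each (GENCODE 29), at bases 575 to 694 of the coding sequence of FOLR1 (chr11:72195978-72196097), 557 to 676 of FOLR2 (chr11:72221551-72221670) and 575 to 694 of FOLR3 (chr11:72139668-72139787). Capitals mark the 15 positions at which the 3 differ. The 3 are more alike in this stretch than over their coding sequences as a whole. It is therefore not typical of them and understates how far their reads can be separated.
FOLR1: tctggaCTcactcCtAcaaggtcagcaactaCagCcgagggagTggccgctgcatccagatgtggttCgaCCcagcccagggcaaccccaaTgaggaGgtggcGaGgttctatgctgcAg
FOLR2: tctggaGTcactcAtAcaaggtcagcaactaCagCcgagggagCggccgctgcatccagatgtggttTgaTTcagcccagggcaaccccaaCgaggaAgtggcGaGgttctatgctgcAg
FOLR3: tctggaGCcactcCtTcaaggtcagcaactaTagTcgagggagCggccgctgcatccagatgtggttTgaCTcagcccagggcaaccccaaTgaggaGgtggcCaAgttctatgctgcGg
In this stretch FOLR2 differed from FOLR1 at 8 bases and FOLR3 at 11. Over the aligned coding bases, FOLR1 was 80.75% identical to FOLR2 and 78.88% to FOLR3, and FOLR2 and FOLR3 were 85.91% identical. Of the 1639 windows of 50 bases in the FOLR1 transcripts, 22 (1.34%) occurred in another gene, the pseudogene AP000812.3, which was listed at 0 in all 12 libraries. For FOLR3 that share was 8.67% of the windows and for FOLR2 it was 0.552%, so most windows of this length occurred in 1 gene.

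FOLR1, the epithelial folate receptor, was lowest with TNF-α alone and highest in the HTRA2 knockdown. It was 2.36, 2.70 and 2.21 FPKM in the 3 medium libraries, from 135, 143 and 119 reads. With TNF-α it was 1.51, 0.915 and 1.30 FPKM, from 91, 47 and 80 reads. With Bufotenidine added it was 2.85, 2.51 and 2.63 FPKM, from 165, 147 and 156 reads, and in the si group 5.85, 4.88 and 5.11 FPKM, from 348, 290 and 307 reads. Every TNFa library lay below every medium library, every si library lay above all others, and the medium and Bufotenidine libraries overlapped. The group means were 2.43 ± 0.252, 1.24 ± 0.300, 2.66 ± 0.170 and 5.28 ± 0.509 FPKM (SD, n = 3) for medium, TNFa, Bufotenidine and si. On the log2(FPKM + 0.1) scale TNFa was 0.94 lower than medium, Bufotenidine 1.07 higher than TNFa and si 2.03 higher than TNFa, and si was 0.96 higher than Bufotenidine and 1.09 higher than medium, while Bufotenidine and medium differed by 0.13. The 3 differences that involve TNFa share the same TNFa libraries. The lowest level, 47 reads in TNFa replicate 2, enters each of them, and without that library they were -0.75, 0.88 and 1.84. Without si replicate 2, the library with fewer mitochondrial reads, si was 2.08 above TNFa. Fewer cells that express a gene and less of its RNA per cell cannot be told apart in such bulk libraries.

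**Figure D1:**
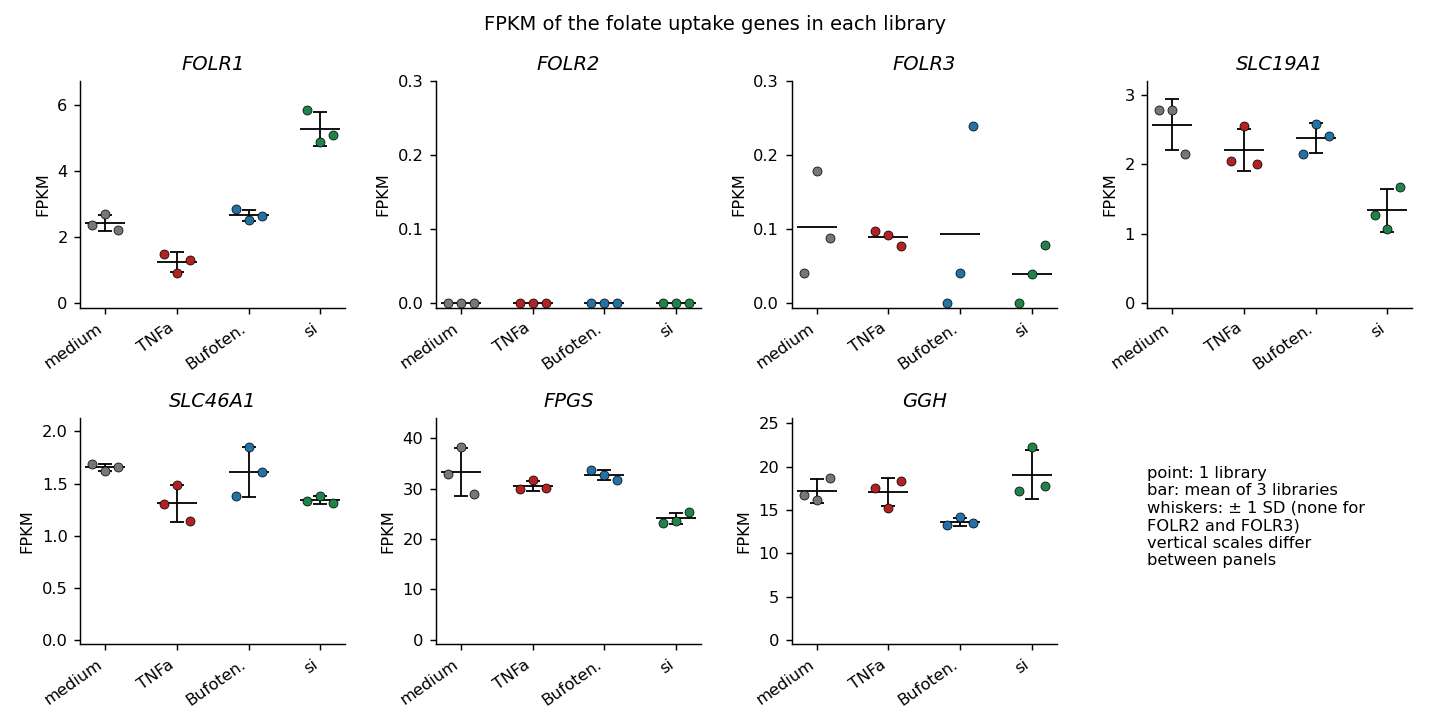
FPKM of the 7 genes in each library (vertical axes, with a scale of its own in each panel) by group, where points are libraries, bars are means of 3 libraries and whiskers are 1 SD (none for FOLR2 and FOLR3). The FOLR1 libraries run from 0.915 FPKM with TNF-α to 5.85 FPKM in the knockdown, SLC19A1 and FPGS are lowest in the knockdown, and FOLR2 is at 0 throughout.

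The other receptors added almost nothing. FOLR2, the myeloid receptor, had 0 reads in all 12 libraries, which allows up to 3 reads, or 0.0568 to 0.0680 FPKM depending on the library, for counting error only. FOLR3, the secreted form, had 2, 8 and 4 reads in medium, 5, 4 and 4 with TNF-α, 0, 2 and 12 with Bufotenidine and 0, 2 and 4 in the si group. Its groups overlapped in every comparison, its mean was at most 0.103 FPKM, and it lay under the filter of a mean of 0.1 FPKM over all libraries, so it was not among the genes tested. In a fit with no filter the adjusted p of FOLR3 was 0.593 or more in the 3 comparisons of TNFa with medium, Bufotenidine and si (limma). At these depths no difference in FOLR2 or FOLR3 was detectable.

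Markers of macrophages and neutrophils, which use FOLR2 and FOLR3, were at very low levels. The sum of these markers, most of it from CD14 and CSF1R, was lowest in TNFa and highest in si. Their summed FPKM over 10 genes was 0.606 to 0.863 in medium, 0.332 to 0.470 in TNFa, 0.649 to 0.735 in Bufotenidine and 0.987 to 1.53 in si. Only CSF1R and CD14 passed the filter, and both were higher in si than in TNFa, CSF1R by 1.28 ± 0.21 (adjusted p = 0.00127) and CD14 by 1.41 ± 0.35 (adjusted p = 0.0163, limma, log2 ± SE, n = 3). Under the filter, ITGAM and CD68 did not follow the order of the sum and had their lowest mean in medium. ITGAM had 0 reads in every medium library and 10 to 14 in the TNFa libraries. CD68 had a mean of 0.0044 FPKM in medium and 0.050 FPKM in TNFa, where it was highest. The defining leukocyte gene PTPRC was at 0.012 FPKM or less in every library and FCGR3B had a value of 0 in all. Of 6 stroma and endothelium markers, COL1A1 was called higher in si than in TNFa (by 1.23 ± 0.14, limma, adjusted p = 0.000126), as were 9.35% of all genes. The summed level of the 6 was 2.78 to 3.52 FPKM in si, 1.07 to 1.49 in TNFa, 1.24 to 1.33 in medium and 1.40 to 1.63 in Bufotenidine, while DCN was 0 in all libraries. Whether any such cells were present in these cultures, and any part of them in the FOLR1 levels, was not tested.

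SLC19A1, the reduced folate carrier (chr21:45493572-45544411, - strand), moved the other way from FOLR1 in the knockdown. It was 2.78, 2.78 and 2.15 FPKM in medium, 2.04, 2.55 and 2.01 with TNF-α, 2.15, 2.57 and 2.41 with Bufotenidine, and 1.28, 1.06 and 1.67 in the si group. Each si library lay below each library of the other groups, which overlapped among themselves. SLC19A1 fell by 0.69 ± 0.17 (SE) on the log2 scale from TNFa to si (adjusted p = 0.0129), and was also lower in si than in medium, by 0.91 (adjusted p = 0.00182), and than in Bufotenidine, by 0.80 (adjusted p = 0.00802, all limma, n = 3 per group). TNFa and medium differed by -0.21 (95% interval -0.57 to 0.15) and Bufotenidine and TNFa by 0.11 (-0.25 to 0.47), neither past the threshold of an adjusted p of 0.05. The call against TNFa was lost without TNFa replicate 2 (adjusted p = 0.0615) and in a limma fit to those groups alone (adjusted p = 0.0619). SLC19A1 shares 1401 of its 9998 exonic bases (14.0%) with COL18A1 on the opposite strand, and strand-specific counting was not stated; COL18A1 was 2.18 ± 0.206 FPKM in TNFa and 2.87 ± 0.415 FPKM in si, a difference of 0.38 in the other direction (adjusted p = 0.111).

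SLC46A1, the proton-coupled folate carrier (chr17:28394756-28407197, - strand), held a narrow range. Its FPKM was 1.68, 1.62 and 1.66 in medium, 1.31, 1.48 and 1.14 with TNF-α, 1.38, 1.85 and 1.61 with Bufotenidine, and 1.33, 1.38 and 1.31 in si. The TNFa libraries all lay below the medium libraries and the Bufotenidine libraries spanned both. None of its differences passed the test. TNFa was -0.32 from medium (95% interval -0.60 to -0.04, adjusted p = 0.239), Bufotenidine 0.28 from TNFa (0.00063 to 0.56, adjusted p = 0.248) and si 0.04 from TNFa (-0.24 to 0.32, adjusted p = 0.875, limma, n = 3). Of its exonic bases, 4821 of 7838 (61.5%) are also exon on the opposite strand, of SARM1 and AC015917.2. SARM1 was at 0.0910 FPKM or less in every library and AC015917.2 was at 0.

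**Figure D2:**
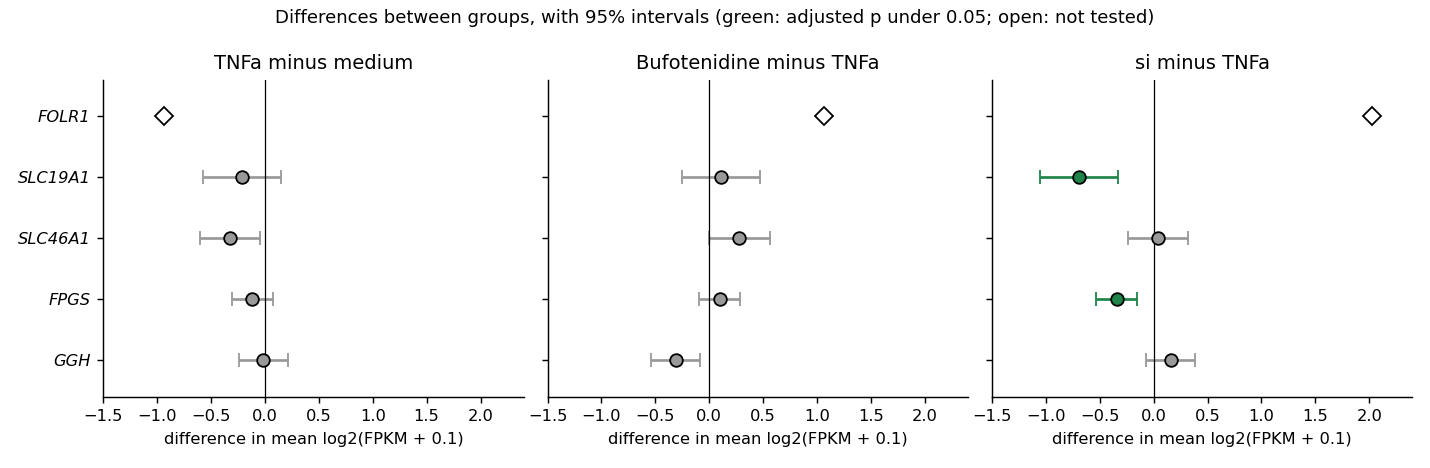
Differences in mean log2(FPKM + 0.1) (horizontal axis) for FOLR1, SLC19A1, SLC46A1, FPGS and GGH in 3 comparisons, with 95% intervals for the 4 genes tested and open diamonds for FOLR1. Green points, SLC19A1 (-0.69) and FPGS (-0.34) in si minus TNFa, passed an adjusted p of 0.05.

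FPGS and GGH, which add and remove the glutamates that keep folate in the cell, had the highest levels of the set. FPGS, folylpolyglutamate synthase (chr9:127794597-127814327, + strand), was 32.9, 38.3 and 28.8 FPKM in medium, 29.9, 31.7 and 30.0 with TNF-α, 33.6, 32.6 and 31.7 with Bufotenidine, and 23.3, 23.6 and 25.4 in si. The si libraries were below all others and the remaining groups overlapped. FPGS fell by 0.34 ± 0.09 (SE) on the log2 scale from TNFa to si (adjusted p = 0.0194), and was 0.46 lower in si than in medium (adjusted p = 0.00266) and 0.44 lower than in Bufotenidine (limma, n = 3). TNFa differed from medium by -0.12 (95% interval -0.31 to 0.08) and Bufotenidine from TNFa by 0.10 (-0.10 to 0.29), so a change of the size seen in si lay outside both intervals. The FPGS call against TNFa was lost without TNFa replicate 2 (adjusted p = 0.0746) or si replicate 1 (adjusted p = 0.0735).

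GGH, gamma-glutamyl hydrolase (chr8:63015079-63039171, - strand), had its lowest values with the compound. It was 16.7, 16.1 and 18.7 FPKM in medium, 17.5, 15.2 and 18.3 with TNF-α, 13.2, 14.2 and 13.5 with Bufotenidine, and 17.2, 22.3 and 17.8 in si. All Bufotenidine libraries lay below all libraries of the other groups, which overlapped, and the highest si value was that of replicate 2. Against TNFa the difference for Bufotenidine was -0.31 ± 0.10 (95% interval -0.54 to -0.08), which missed the threshold after adjustment (limma, adjusted p = 0.143), as did that against medium (-0.33, adjusted p = 0.0934). Between si and Bufotenidine GGH was 0.47 ± 0.10 higher in si (adjusted p = 0.0119, limma, n = 3). With TNF-α alone GGH was -0.01 from medium (-0.24 to 0.21).

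Read as a set, 4 members (SLC19A1, SLC46A1, FPGS and GGH) could be tested. Between TNFa and medium 0 of 4 were called by limma, where 4.10% of the 18079 genes tested were. There 1 of 4 had an unadjusted p under 0.05, as had 2673 of all genes. Between Bufotenidine and TNFa 0 of 4 were called, where 0.0387% of all genes were, and 2 of 4 (SLC46A1 and GGH) had an unadjusted p under 0.05, as had 3632 of all genes. By voom on the recovered reads both counts were also 0. Between si and TNFa 2 of 4 were called, both lower, against 17.4% of all genes called and 8.08% called lower, and without TNFa replicate 2 the count was 0, without si replicate 1 it was 1. For genes with a mean of at least 1 FPKM, as all 4 have, a fit called 3122 of 11185, 1615 of them lower. Groups did not overlap, with the first lower, for 1 of 4 between TNFa and medium (SLC46A1, 8.74% of all genes), 1 of 4 between Bufotenidine and TNFa (GGH, 15.5%) and 2 of 4 between si and TNFa (16.4%). The median difference of the 4 was -0.17, 0.10 and -0.15 in the 3 comparisons, against -0.0020, 0.00 and -0.0034 over all genes. Further pairs were compared to place the levels. The si group differed from medium in 2 of 4 (24.3% of all genes) and from Bufotenidine in 3 of 4 (15.3%). Bufotenidine differed from medium in 0 of 4 (6.55%). In that pair 1 of 4, GGH, had an unadjusted p under 0.05, as had 3798 of all genes. For SLC19A1 and FPGS the order of the means was si, TNFa, Bufotenidine, medium, and neighbours above si did not differ beyond their spread. For GGH it was Bufotenidine, TNFa, medium, si, and no neighbouring groups differed past the threshold.

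Ratios within a library, chosen after the values were seen, put the levels of 2 members side by side. For FPGS to GGH an exact permutation test gave p = 0.1 for si and for Bufotenidine against TNFa. With 3 libraries per group that test cannot give less, so it decides nothing here. FOLR1 to SLC19A1 is given with no test. Against TNFa, limma called neither GGH in si nor FPGS with Bufotenidine. FPGS was 1.97, 2.38 and 1.54 times GGH in medium, 1.71, 2.09 and 1.64 times with TNF-α, 2.54, 2.30 and 2.34 times with Bufotenidine and 1.35, 1.06 and 1.43 times in si. The si libraries lay below all TNFa libraries and the Bufotenidine libraries above them. FOLR1 relative to SLC19A1 was 0.850, 0.973 and 1.03 in medium, 0.738, 0.359 and 0.648 with TNF-α, 1.32, 0.976 and 1.09 with Bufotenidine and 4.59, 4.59 and 3.05 in si, so that FOLR1 exceeded the carrier per length in every si library. The latter ratio contains FOLR1, on which the set was chosen.

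**Figure D3:**
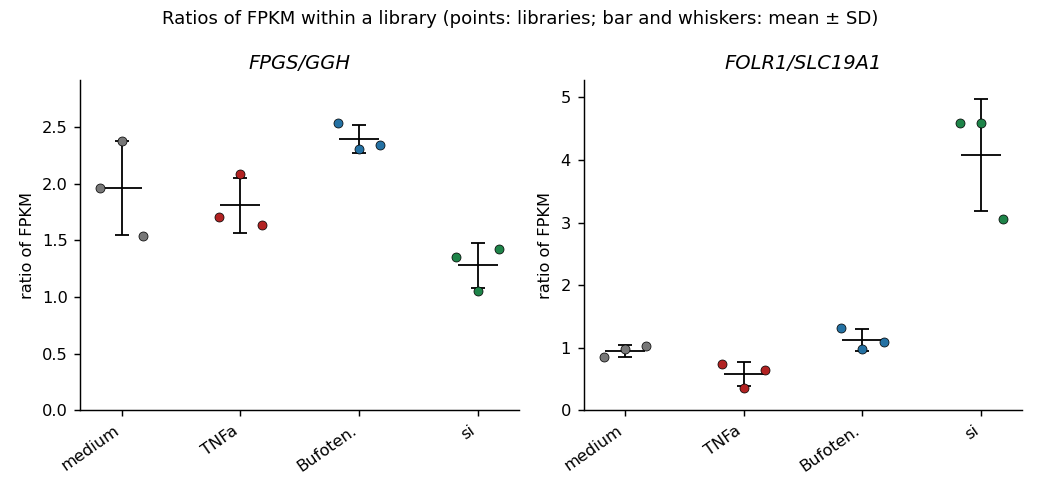
Ratios of FPKM within each library (vertical axes from 0) of FPGS to GGH and of FOLR1 to SLC19A1, by group, with points for libraries and the mean ± SD of 3. FPGS to GGH is lowest in si, at 1.06 to 1.43, and FOLR1 to SLC19A1 is highest there, at 3.05 to 4.59.

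Genes that use folate in the cell were lower in si wherever they passed the test. Of 20 genes of the folate cycle, 15 passed the filter, with a median difference of -0.23 between si and TNFa. Of these, 5 were called lower and 0 higher, against 8.08% and 9.35% of all genes. Calls were more common at higher levels. A fit to genes with a mean of at least 1 FPKM, as all 5 have, called 1615 of 11185 lower and 1507 higher. MTRR, which reactivates methionine synthase, fell by 0.47 ± 0.08 (SE, adjusted p = 0.00145), the cytosolic enzyme MTHFD1 by 0.37 ± 0.07 (adjusted p = 0.00262) and GART, of purine synthesis, by 0.36 ± 0.06 (adjusted p = 0.00201). MTRR was 7.84, 7.98 and 6.73 FPKM with TNF-α and 5.15, 5.36 and 5.65 FPKM in si, and the groups did not overlap. TYMS, which makes thymidylate, fell by 0.28 ± 0.07 (adjusted p = 0.0202), and the mitochondrial enzyme MTHFD2 by 0.27 ± 0.09 (adjusted p = 0.0478, all limma, n = 3 per group). The call of MTHFD2 was lost in more than 1 alternative fit and that of TYMS in the fit to those groups alone (limma, adjusted p = 0.0573). Both were lost without TNFa replicate 1, TNFa replicate 2 or si replicate 3, where the list gave 3 calls in place of 5. On the opposite strand TYMS shares 46.6% of its exonic bases with ENOSF1 and TYMSOS, and MTHFD2 33.2% with SLC4A5 and AC006030.1.

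With Bufotenidine 0 of the 15 folate cycle genes were called against TNFa by limma (0.0387% of all genes were), 0 by voom, and 6 had an unadjusted p under 0.05, as had 3632 of the 18079 genes. The median difference was -0.13, with a range from -0.82 (GCSH) to 0.21 (SHMT2), and 12 of the 15 values were below 0. Between TNFa and medium 1 of the 15 was called, where 4.10% of all genes were. It was SHMT1, the cytosolic serine hydroxymethyltransferase, which fell by 0.32 ± 0.07 (adjusted p = 0.0322, limma, n = 3), from 16.7 ± 0.895 to 13.3 ± 0.776 FPKM. That call was lost without each of 5 libraries in turn: medium replicate 2, medium replicate 3 and TNFa replicates 1, 2 and 3.

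Of 15 other genes that carry folates or related compounds, 7 passed the filter. Between si and TNFa 2 were called higher and 1 lower, where 9.35% and 8.08% of all genes were. The export pumps ABCC2 and ABCC3 rose by 0.63 ± 0.12 (adjusted p = 0.00372) and 0.65 ± 0.09 (adjusted p = 0.000682), ABCC2 from 1.03 ± 0.0395 to 1.65 ± 0.118 FPKM and ABCC3 from 9.62 ± 0.283 to 15.2 ± 1.67 FPKM. The pump ABCG2 fell by 0.41 ± 0.06 (adjusted p = 0.000454, limma, n = 3), from 23.8 ± 0.706 to 17.9 ± 0.756 FPKM. Between Bufotenidine and TNFa limma called 0 of 7 (0.0387% of all genes) and voom 1, and 1 had an unadjusted p under 0.05, as had 3632 of all genes. Between TNFa and medium limma called 0 of 7 (4.10% of all genes) and voom 1, and 2 had an unadjusted p under 0.05, as had 2673 of all genes. The endocytic receptors LRP2 and CUBN were at 0.040 FPKM or less, and FOLH1, which cleaves glutamates from folate outside the cell, and IZUMO1R, a relative of the folate receptors on the egg, were at 0 in all libraries.

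**Figure D4:**
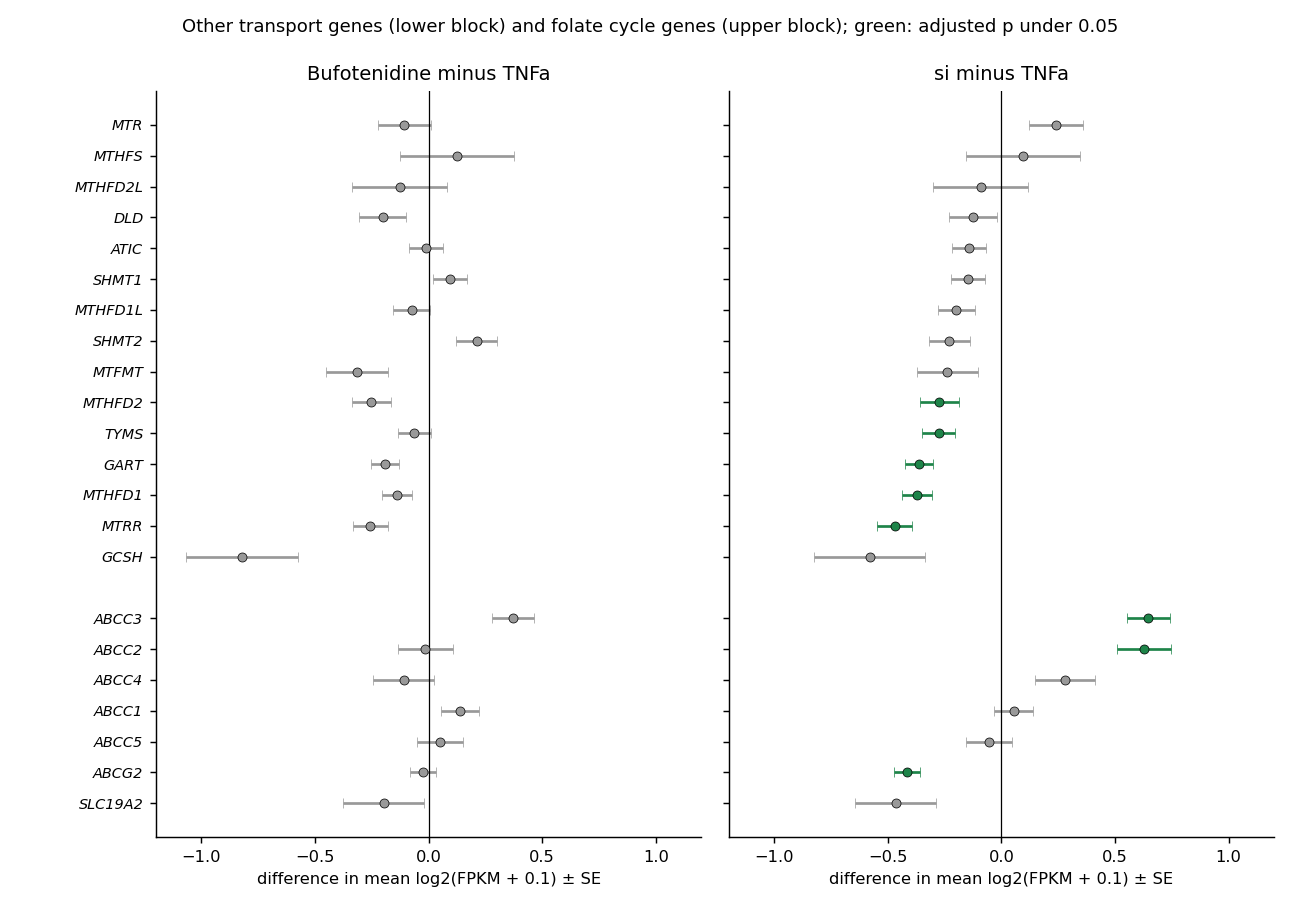
Differences in mean log2(FPKM + 0.1) ± SE (horizontal axis) for 15 folate cycle genes (upper block) and 7 other transport genes (lower block), for Bufotenidine minus TNFa (left) and si minus TNFa (right). Green marks an adjusted p under 0.05, which 5 folate cycle genes and 3 transport genes reached on the right and none on the left.

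The genes whose levels most resembled those of FOLR1 were found over 11184 genes with a mean of at least 1 FPKM, by Pearson correlation of log2(FPKM + 0.1) over the 12 libraries. The 5 highest were VILL (r = 0.984), SLC2A10 (0.976), GALNT12 (0.969), TJP3 (0.962) and KRT15 (0.960), and 72 genes had r above 0.9. VILL had means of 2.48 ± 0.341, 1.83 ± 0.239, 2.64 ± 0.163 and 3.63 ± 0.136 FPKM in medium, TNFa, Bufotenidine and si. KRT15 went from 11.8 ± 1.64 FPKM in TNFa to 37.8 ± 1.79 FPKM in si, with 18.1 ± 3.26 in medium and 17.1 ± 1.74 in Bufotenidine. All 5 had their lowest mean in TNFa and their highest in si, as had FOLR1. This order follows from choosing them by their correlation with FOLR1 and is no separate result. The other members were not alike, with r of -0.64 for SLC19A1, -0.57 for FPGS, 0.24 for GGH and -0.01 for SLC46A1. These values describe 12 points that fall into 4 groups and share the depth of each library.

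No neighbour of FOLR1 on chromosome 11 that could be tested was called. Of 23 genes within 100 kb of the receptor cluster, 10 were listed at 0 in all libraries and 8, FOLR1 included, had a mean of at least 0.1 FPKM. The other 7 were NUMA1, LRTOMT, LAMTOR1, ANAPC15, INPPL1, CLPB and the pseudogene AP000812.2, and limma called 0 of them in each of the 3 comparisons. Their lowest adjusted p was 0.176 for TNFa against medium, 0.166 for Bufotenidine against TNFa and 0.203 for si against TNFa. Over all genes 4.10%, 0.0387% and 17.4% were called in these comparisons, so 0 calls among 7 genes says little. Leaving aside AP000812.2, their differences lay between -0.27 and 0.13 for TNFa against medium. Against TNFa they lay between -0.13 and 0.32 for Bufotenidine and between -0.21 and 0.18 for si. NUMA1, LAMTOR1, ANAPC15, INPPL1 and CLPB were lower in TNFa than in medium and higher in Bufotenidine than in TNFa, the signs of FOLR1. LRTOMT had the reverse signs. Both comparisons share the TNFa libraries, and none of these differences was called. Between si and TNFa the signs were mixed. NUMA1 (0.18) and INPPL1 (0.098) were higher in si, as was FOLR1. LAMTOR1 (-0.045), ANAPC15 (-0.19), CLPB (-0.21) and LRTOMT (-0.0034) were lower. INPPL1, the next expressed gene past FOLR2, was 12.3 ± 0.936 FPKM in TNFa, 15.3 ± 0.137 in Bufotenidine and 13.3 ± 2.64 in si. AP000812.2, with differences of -1.0, -0.18 and 0.78, had standard errors of 0.59.

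**Figure D5:**
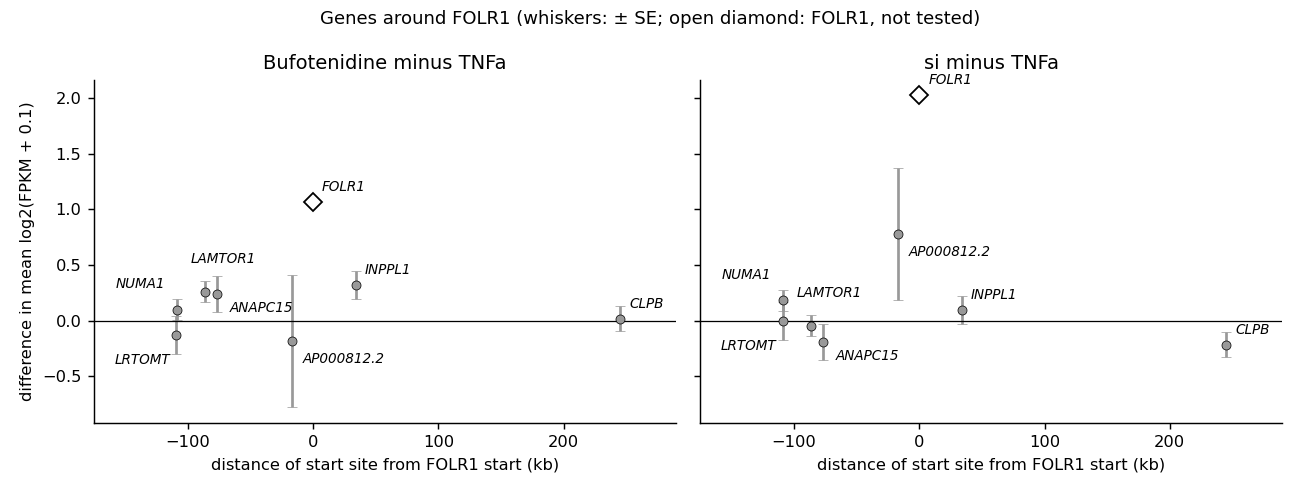
Difference in mean log2(FPKM + 0.1) (vertical axis) against the distance of each gene's start site from that of FOLR1 in kb (horizontal axis), for Bufotenidine minus TNFa (left) and si minus TNFa (right), with whiskers of 1 SE and an open diamond for FOLR1, which was not tested. FOLR1 stands at 1.07 and 2.03, and the others, AP000812.2 aside, between -0.21 and 0.32.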

How the data were processed

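Total RNA of NCM460 cells was made into poly(A) libraries, and the authors deposited FPKM values for each gene, with 1 column per library and the length of each gene. Per the submitters' processing notes, CASAVA 1.8, HISAT2 2.0.4, HTSeq 0.9.1 and hg38 were used; whether counting used strand was not given in the sources used here, so reads of overlapping antisense genes cannot be told apart. Positions of 99.9% of genes equalled those of GENCODE 29. Whole reads were recovered from the FPKM for 100% of values (tolerance 0.1 read). The deposited values already carry a scaling by the median of ratios, and the sum of reads was 0.949 to 1.03 times the divisor they imply.

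In R 4.3.3 with limma 3.58.1, log2(FPKM + 0.1) was, for the 18079 genes whose mean FPKM reached 0.1, fitted with 1 mean per group (8 residual degrees of freedom, eBayes with trend, two-sided, Benjamini-Hochberg over these genes, called at an adjusted p under 0.05). The pseudocount of 0.1 makes folds of low genes too small. The fit was tested on simulated data. Replicates differed by more than sampling noise (chi-squared per degree of freedom of 6.87 or more). Coding sequences were aligned with Biopython 1.88. Intervals and the floor of 3 reads cover counting error or the fitted spread only.

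Named are every member, HTRA2, the 5 genes most correlated with FOLR1, the expressed genes within 100 kb of the receptors, and folate cycle and other transport genes with an adjusted p under 0.05 between TNFa and another group. GCSH, SHMT2, COL18A1, SARM1, genes listed at or near 0, cobalamin and methionine genes and marker genes were named after their values were seen. The members and lists were chosen with earlier results of these data known, and some folate cycle genes are not reported here. Alternatives were other pseudocounts, filters and scalings, eBayes without trend, voom on recovered reads, fits to fewer groups, a replicate block, and leaving out each library.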

Additional observations from a re-analysis of the deposited data

How the results depend on the processing

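FOLR1 kept its direction in every alternative. The set was chosen on its levels in these same libraries, so this adds no support. With a pseudocount of 1 its differences were -0.62 (TNFa against medium), 0.72 (Bufotenidine against TNFa) and 1.49 (si against TNFa), and with 1 library left out they ranged from -1.08 to -0.75, 0.88 to 1.21 and 1.84 to 2.17. For si against TNFa a fit to those 2 groups alone called 1 of 4 members (FPGS) and 3 of 15 folate cycle genes, and leaving out 1 library gave 0 to 2 members, 3 to 6 folate cycle genes and 3 to 4 of 7 other transport genes. For TNFa against medium the single folate cycle call became 0 with eBayes without trend and in the fit to those groups alone, leaving out 1 library gave 0 to 1, and for other transport genes a mean FPKM of at least 1, voom and the scaling to the sum of reads (added after seeing the data) each gave 1 call in place of 0, and leaving out 1 library 0 to 1. For Bufotenidine against TNFa, the fit to those groups alone and voom each called 1 transport gene in place of 0. Over all genes that comparison varied most of the 3, with 7 calls against 1 (eBayes without trend), 3 (pseudocount 1), 14 (sum of reads), 127 (mean FPKM of at least 1), 236 (voom) and 911 (those groups alone), and TNFa against medium fell from 742 to 392 in the last. The causes were not tested. Signs changed only where differences were near 0 and 1 library was left out, with ranges of -0.070 to 0.064 (GGH) and -0.097 to 0.084 (HTRA2) for TNFa against medium, -0.051 to 0.13 (SLC46A1) for si against TNFa, and -0.14 to 0.058 (SLC46A1) and -0.12 to 0.085 (FPGS) for Bufotenidine against medium. Rescaling by the median of ratios gave the same factor for all 12 libraries, so it does not test the scaling. With 47 to 348 reads per library, FOLR1 has wider counting error than the carriers, and FOLR2 and FOLR3 cannot be compared at these depths.

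Groups share replicate numbers, but same-numbered libraries did not deviate together (18 pairs, r from -0.10 to 0.04), and the main fit used no pairing. These correlations run over all tested genes, so they cannot show a shared batch that touches few of them. A replicate block gave 0 folate cycle calls for TNFa against medium in place of 1, lost MTHFD2 (adjusted p = 0.0801) for si against TNFa, and called 1 gene of all in place of 7 for Bufotenidine against TNFa.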

Other observations

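Folate donates its methyl group to homocysteine in a reaction that needs cobalamin, and 20 genes of cobalamin handling and the methionine cycle were looked up as well, a list chosen after the data were seen. Of these, 16 passed the filter. Between si and TNFa 2 were called, both lower (8.08% of all genes were): AHCY, which clears S-adenosylhomocysteine, fell by 0.35 (adjusted p = 0.034), from 138.1 ± 9.36 to 108.4 ± 12 FPKM, and MAT2A, which makes S-adenosylmethionine, fell by 0.41 (adjusted p = 0.00888, limma, n = 3), from 31.3 ± 1.53 to 23.5 ± 0.621 FPKM. CTH, which splits cystathionine to cysteine, was the 1 of 16 called between TNFa and medium, where 4.10% of all genes were, and fell by 0.57 (adjusted p = 0.0432), from 4.34 ± 0.380 to 2.93 ± 0.684 FPKM. Between Bufotenidine and TNFa limma called 0 of 16 (0.0387% of all genes), and 5 had an unadjusted p under 0.05, as had 3632 of the 18079 genes.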
